A study of Homo sapiens with 8 samples.

Results

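The epithelial-mesenchymal state genes examined here were CDH1, CDH2, VIM, FN1, SNAI1, SNAI2, ZEB1, ZEB2, TWIST1 and ESRP1, 10 of the 34809 gene names on the array. They were chosen by name, and each was read with its brightest probe. Of the 10 genes, 8 were well above background on all 8 arrays and entered the test among 20450 genes, and ZEB2 and TWIST1 did not.

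Epithelial-mesenchymal transition is the programme by which epithelial cells loosen their junctions and take on traits of mesenchymal cells, and carcinoma cells often occupy states between both ends. Cadherins set which cells adhere to each other, vimentin and fibronectin build the mesenchymal cytoskeleton and matrix, and the SNAI, ZEB and TWIST transcription factors repress epithelial genes, often through E-box elements in their promoters. ESRP1 keeps epithelial forms of many transcripts by directing their splicing.

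The arrays measured RNA of HuCCT1 cells, a human intrahepatic cholangiocarcinoma line, carrying one of 4 retroviral short hairpin vectors, with 2 arrays for each vector. The vectors shControl and shNontarget were labelled control, and shBEX2-1 and shBEX2-2, directed against BEX2, were labelled BEX2 knockdown. The study describes control cells with a hairpin against luciferase without saying which of the control vectors carries it, and its methods do not state that a vector's arrays are separate cultures, so p-values measure only the spread between these arrays. The labels name no further treatment of the cells.

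Intensities are given as log2 values relative to the 75th percentile of the same array, so a value of 0 is the 75th percentile. The 75th percentile itself was 667 to 838 intensity units on the control arrays and 441 to 631 on the knockdown arrays, and 59.8% to 64.6% of 58717 spots were well above background. All control arrays lay in row 1 of the slide and all knockdown arrays in row 2, so slide row and condition cannot be told apart. The shNontarget arrays stood apart from each other, with a gap over 1 (log2) for 34.9% of genes, against 1.76% for shControl, 1.57% for shBEX2-1 and 0.557% for shBEX2-2. BEX2, the gene the hairpins target, read -3.36 and -3.91 with shControl, -2.70 and -3.77 with shNontarget, -5.21 and -5.54 with shBEX2-1 and -4.92 and -4.60 with shBEX2-2. BEX2 was well above background on 2 of the 4 knockdown arrays, those of shBEX2-2, so the shBEX2-1 readings are only an upper bound of its level there. The fitted difference of BEX2 over all knockdown arrays was -1.63 ± 0.32 (log2, SE, n = 4 against 4, limma adjusted p = 0.0116), and for shBEX2-2, where it was measured, it was -1.32 ± 0.37 (adjusted p = 0.0812), not past the threshold. With normexp background correction the difference over all knockdown arrays was -0.45 (adjusted p = 0.0796), and with shNontarget as the sole control it was -1.83 (adjusted p = 0.0787).

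The cells were checked against marker lists. All 6 biliary epithelial markers were well above background on all arrays, among them KRT7 (difference 0.11, adjusted p = 0.756), KRT19 (0.20, adjusted p = 0.543) and EPCAM (0.06, adjusted p = 0.894), and none of the 6 passed the limma test. Their summed level, in multiples of the 75th percentile, was 506 to 704 on the control arrays and 636 to 756 on the knockdown arrays. Summed levels on control and knockdown arrays were 0.143 to 0.257 and 0.105 to 0.207 for 6 hepatocyte markers, 0.997 to 1.20 and 0.564 to 1.67 for 7 fibroblast markers, 0.388 to 0.545 and 0.581 to 0.652 for 5 leukocyte markers, and 0.147 to 0.223 and 0.172 to 0.212 for 5 endothelial markers. The defining markers ALB, COL1A2, COL3A1 and PECAM1 were not well above background on any array, while the fibroblast markers COL1A1 and LUM, the leukocyte marker CD14 and the endothelial markers CDH5 and VWF were on all 8, and PTPRC on 7. No hepatocyte marker was well above background on all 8 arrays, but TAT was on 7, APOA1 on 6 and CYP2E1 on 4. The leukocyte sum did not overlap between the conditions, and of its genes CD14 passed the test (difference 0.54, adjusted p = 0.0295). The part of these markers in the results below was not tested.

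VIM and FN1 each had a single probe that the array's design did not place on the genome (hg19), and their sequences are shown because every value of these genes rests on them. The FN1 probe is annotated to transcript variant 7 of the gene, and which other FN1 transcripts it reads was not tested.

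VIM: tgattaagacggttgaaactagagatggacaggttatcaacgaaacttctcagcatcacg

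FN1: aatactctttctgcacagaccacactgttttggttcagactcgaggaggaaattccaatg

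The other probes used were placed by the design in hg19, for CDH1 at chr16:68869214-68869273, for CDH2 at chr18:25530936-25530995, for SNAI1 at chr20:48605170-48605229, for SNAI2 at chr8:49830710-49830769, for ZEB1 at chr10:31818063-31818122 and for ESRP1 at chr8:95680359-95680418. Exon and UTR positions within these genes were not used here.

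The question was whether loss of BEX2 went with a shift of the epithelial-mesenchymal state. Of the 8 members tested, 1 fell in the knockdown arrays and none rose, SNAI2 being the single call. Over all genes tested, 12.9% were called, 6.68% higher and 6.26% lower, and with normexp background correction 63.2% of the calls were higher. A single call among 8 members is near this background. The arrays of the groups did not overlap for 1 of the 8 members, which was lower, against 22.1% of all genes, 11.4% higher and 10.7% lower, and the median difference of the members was -0.11 against 0.03 for all genes. Because whole cultures were measured, fewer cells of a kind and less RNA per cell cannot be told apart.

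**Figure D1:**
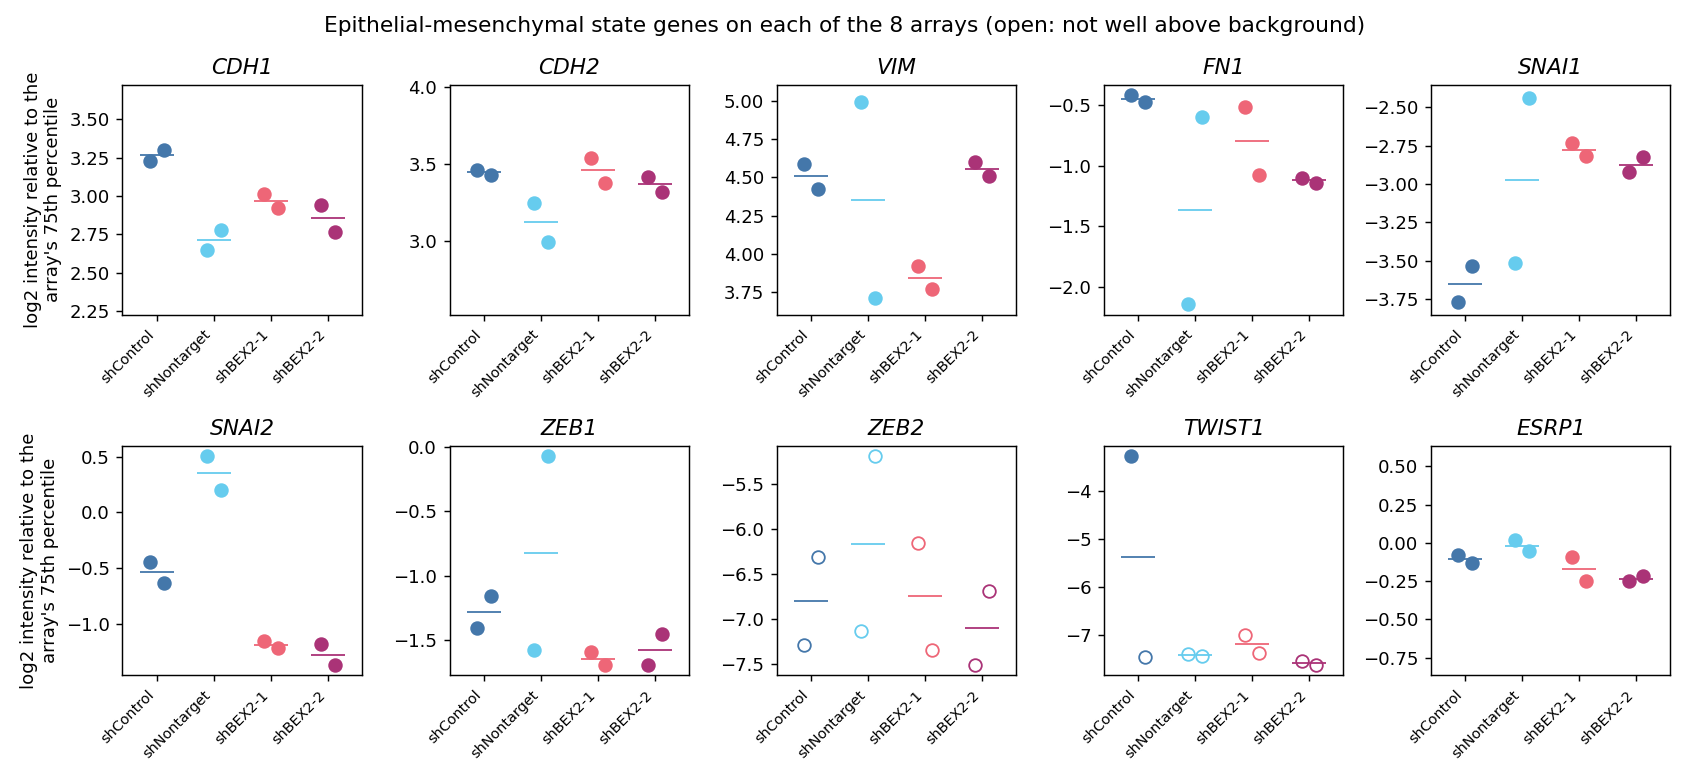
Level of each of the 10 genes on each array, as log2 intensity relative to the array's 75th percentile (vertical axis, a separate range in each panel), by vector (horizontal axis). Points are arrays, horizontal lines are vector means, and open points are probes not well above background. SNAI2 ranged from -0.63 to 0.50 over the control arrays and from -1.36 to -1.15 over the knockdown arrays.

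CDH1 encodes E-cadherin, the adhesion protein of epithelial junctions. Its level was 3.23 and 3.30 with shControl, 2.65 and 2.78 with shNontarget, 3.02 and 2.92 with shBEX2-1 and 2.94 and 2.77 with shBEX2-2. The shControl arrays were above all others and the shNontarget and knockdown arrays overlapped. The knockdown arrays differed from the control arrays by -0.08 ± 0.17 (log2, SE), with a 95% interval of -0.46 to 0.31 (limma adjusted p = 0.814). Against shControl alone the difference was -0.36 (limma adjusted p = 0.0209), in a fit where 33.5% of all genes were called. Against shNontarget alone it was 0.20 (limma adjusted p = 0.565), so the direction depended on the control vector. The control vectors themselves differed by -0.56 (shNontarget minus shControl, 95% interval -0.91 to -0.20, limma adjusted p = 0.417).

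CDH2 encodes N-cadherin, the cadherin that mesenchymal cells commonly gain. Its brighter probe read 3.46 and 3.43 with shControl, 3.25 and 2.99 with shNontarget, 3.54 and 3.37 with shBEX2-1 and 3.42 and 3.32 with shBEX2-2. The 6 arrays of shControl and the knockdown vectors overlapped, and the shNontarget arrays were the lowest. The difference was 0.13 ± 0.14 (log2, SE, 95% interval -0.18 to 0.44, limma adjusted p = 0.598), and against shControl alone it was -0.03 (adjusted p = 0.799). With 1 array left out it ranged from 0.03, without shNontarget array 2, to 0.19.

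A second CDH2 probe, at hg19 chr18:25532081-25532140, gave another reading. It read 2.03 and 2.14 with shControl, 1.51 and 1.84 with shNontarget, 2.71 and 2.46 with shBEX2-1 and 2.64 and 2.41 with shBEX2-2, so every knockdown array was above every control array. In a limma fit over 25053 probes, made after the values were seen, the rise was 0.67 ± 0.16 (log2, SE, adjusted p = 0.0251), where 13.6% of all probes were called. It was no longer past the threshold without shControl array 1, either shBEX2-1 array or either shBEX2-2 array (adjusted p 0.0538 to 0.0864). The gap between the probes, second minus brighter, was -1.40 ± 0.25 (SD, n = 4) on the control arrays and -0.86 ± 0.07 (SD, n = 4) on the knockdown arrays, an unequal change of 0.54 (two-sided exact permutation p = 0.0286, the smallest that 4 against 4 allows). CDH2 is therefore uncertain here.

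**Figure D2:**
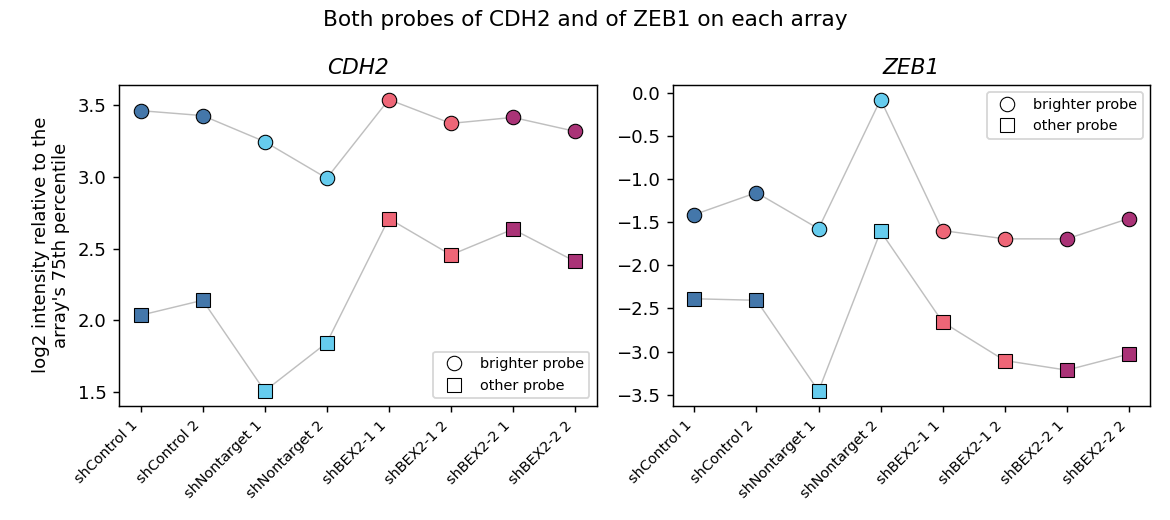
Both probes of CDH2 and of ZEB1 on each of the 8 arrays (horizontal axis), as log2 intensity relative to the array's 75th percentile (vertical axis), with circles for the brighter probe and squares for the other. The second CDH2 probe was 2.41 to 2.71 on the knockdown arrays and 1.51 to 2.14 on the control arrays, while the ranges of the brighter probe overlapped.

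VIM encodes vimentin, the intermediate filament of mesenchymal cells. Its level was 4.59 and 4.43 with shControl, 4.99 and 3.71 with shNontarget, 3.92 and 3.77 with shBEX2-1 and 4.60 and 4.51 with shBEX2-2. The shNontarget arrays held both the highest and the lowest value, 1.28 apart. The difference between knockdown and control was -0.23 ± 0.29 (log2, SE, 95% interval -0.89 to 0.43, limma adjusted p = 0.666). It was -0.04 without shNontarget array 1 and -0.47 without shNontarget array 2, the ends of its range with 1 array left out. The shBEX2-1 arrays were below both shBEX2-2 arrays, by -0.71 ± 0.39 (log2, SE, limma adjusted p = 0.884). The fit behind this SE shares its spread over all vectors, the shNontarget arrays included.

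FN1 encodes fibronectin, an extracellular matrix protein that mesenchymal cells secrete. Its probe read -0.42 and -0.48 with shControl, -2.14 and -0.60 with shNontarget, -0.52 and -1.08 with shBEX2-1 and -1.10 and -1.14 with shBEX2-2. The groups overlapped, with shNontarget array 1 the lowest of all. The difference was -0.05 ± 0.37 (log2, SE, 95% interval -0.89 to 0.78, limma adjusted p = 0.951), and against shNontarget alone it was 0.41 (adjusted p = 0.661).

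SNAI2 encodes Slug, a zinc finger repressor of the SNAI family. Its intensity was 537 and 542 with shControl, 1061 and 765 with shNontarget, 200 and 221 with shBEX2-1 and 273 and 245 with shBEX2-2. Relative to the 75th percentile these were -0.44 and -0.63, 0.50 and 0.20, -1.15 and -1.22, and -1.18 and -1.36. All 4 knockdown arrays were below all 4 control arrays. SNAI2 fell by 1.13 ± 0.24 on the log2 scale (SE, n = 4 against 4), to a level 2.20-fold lower, with limma adjusted p = 0.0165. The exact permutation p was 0.0286 (two-sided), the smallest that 70 relabellings allow. Every gene without overlap gets this p, as 22.1% of all genes do, so it adds nothing to the call. Both this p and the limma p of knockdown against control treat a vector's arrays as independent.

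The fall of SNAI2 was seen with both BEX2 hairpins and in different size against each control vector. It was -1.09 ± 0.15 (log2, SE) for shBEX2-1 against both control vectors (limma adjusted p = 0.0132) and -1.18 ± 0.15 for shBEX2-2 (adjusted p = 0.00782). With shControl as the only control neither hairpin passed the threshold, where 5.33% (shBEX2-1) and 7.43% (shBEX2-2) of all genes were called. The call for shBEX2-1 was lost without any one of the 6 arrays other than those of shNontarget, and the call for shBEX2-2 without shControl array 1 or either shBEX2-2 array. Such fits leave a vector with 1 array and called few or no genes at all, so these losses are not particular to SNAI2. The hairpins differed from each other by 0.09, with a 95% interval of -0.32 to 0.50. The target sequences that the study lists for its BEX2 hairpins are nearly reverse complements of each other and cover nearly the same site. Agreement between the hairpins is therefore not independent evidence. Against shControl alone the knockdown difference of SNAI2 was -0.69 (limma adjusted p = 0.00294), where 33.5% of all genes were called. Against shNontarget alone it was -1.58 (limma adjusted p = 0.0269), where 1.67% of all genes were called. SNAI2 was higher with shNontarget than with shControl by 0.89 ± 0.17 (log2, SE, limma adjusted p = 0.357), beside a fall of 1.13 with knockdown. Without shBEX2-2 array 1 or 2 the limma adjusted p was 0.0524 and 0.0563, and the rank product gave a false positive share of 0.0696, so the call depended on these choices while its direction did not.

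SNAI1 encodes Snail, the other SNAI repressor tested, and was not called. Its level was -3.77 and -3.54 with shControl, -3.52 and -2.44 with shNontarget, -2.73 and -2.82 with shBEX2-1 and -2.92 and -2.82 with shBEX2-2. The knockdown arrays were above 3 control arrays and below shNontarget array 2. The difference was 0.49 ± 0.28 (log2, SE, 95% interval -0.14 to 1.12, limma adjusted p = 0.295). Without shNontarget array 2 it was 0.78 (limma adjusted p = 0.00845), in a fit where 21.1% of all genes were called. Against shControl alone it was 0.83 (limma adjusted p = 0.00379), where 33.5% of all genes were called. Against shNontarget alone it was 0.15 (limma adjusted p = 0.841).

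**Figure D3:**
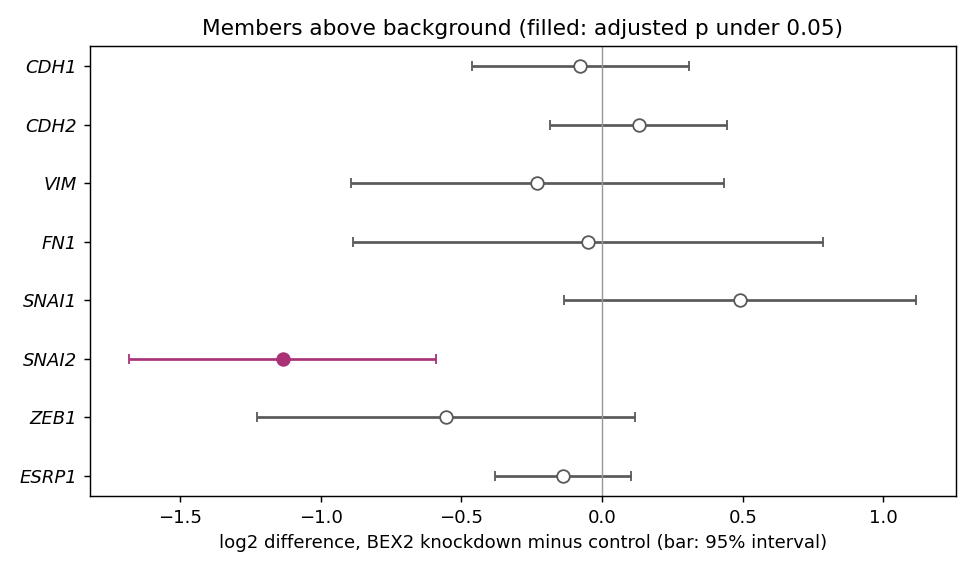
Difference between BEX2 knockdown and control (horizontal axis, log2, 4 arrays against 4) for the 8 tested genes (vertical axis), with 95% intervals from limma as bars and a filled point for an adjusted p under 0.05. SNAI2 at -1.13 is the filled point, and the other 7 intervals include 0.

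ZEB1 is a zinc finger and homeodomain repressor of epithelial genes. Its brighter probe read -1.41 and -1.15 with shControl, -1.57 and -0.07 with shNontarget, -1.59 and -1.69 with shBEX2-1 and -1.69 and -1.46 with shBEX2-2. The knockdown arrays overlapped shNontarget array 1 and were below the other 3 control arrays. The difference was -0.56 ± 0.30 (log2, SE, 95% interval -1.23 to 0.12, limma adjusted p = 0.267; exact permutation p = 0.0571, two-sided). It was -0.73 without shNontarget array 1 and -0.23 without shNontarget array 2, the ends of its range with 1 array left out. A second ZEB1 probe, at hg19 chr10:31816261-31816320, gave -0.54 (adjusted p = 0.354), and the gap between the probes differed by 0.02 between the conditions (two-sided exact permutation p = 0.943). Without shNontarget array 1 the second probe's difference was -0.87 (adjusted p = 0.0273), and without shNontarget array 2 it was -0.25 (adjusted p = 0.556).

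The promoter upstream of the first ZEB1 start is shown because the repressors among these genes are known to bind E-boxes and ZEB1 is itself one of them. It is RefSeq sequence of GRCh38.p14, plus strand, chr10:31318167-31318416, the 250 bases before the start, with the E-box hexamer CACCTG, here as CAGGTG of the opposite strand, in capitals.

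ZEB1: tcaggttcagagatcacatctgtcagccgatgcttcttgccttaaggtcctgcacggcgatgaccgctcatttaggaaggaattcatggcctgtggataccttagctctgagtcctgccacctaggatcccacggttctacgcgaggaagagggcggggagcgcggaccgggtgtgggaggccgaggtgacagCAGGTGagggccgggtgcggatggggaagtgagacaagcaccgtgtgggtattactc

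RefSeq promoter windows of 300 bases matched 5 of the 10 members, CDH2, VIM, FN1, ZEB1 and ZEB2, with 12 windows in all. The hexamer, searched on both strands, was in 2 of the 7 ZEB1 windows and in none of the other member windows, against 20.6% of all 35116 windows. A match is a string of letters and was not tested as a binding site.

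ZEB2 encodes the second ZEB repressor, and TWIST1 a basic helix-loop-helix factor of mesodermal and mesenchymal cells. Neither of the 2 ZEB2 probes was well above background on any array. One of the 2 TWIST1 probes was well above background on shControl array 1 alone, at -3.28, and on the other 7 arrays it read -7.62 to -7.01, not well above background. The other TWIST1 probe stayed at background on all 8 arrays, shControl array 1 included. No fold change is given for either gene.

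ESRP1 encodes an epithelial splicing regulator and varied least among the tested members. Its level was -0.08 and -0.13 with shControl, 0.02 and -0.06 with shNontarget, -0.10 and -0.25 with shBEX2-1 and -0.25 and -0.22 with shBEX2-2. One knockdown array lay within the range of the control arrays. The difference was -0.14 ± 0.11 (log2, SE, 95% interval -0.38 to 0.10, limma adjusted p = 0.448; exact permutation p = 0.0571, two-sided).

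Compared over all 4 vectors by the moderated F test of limma, SNAI2 was again the single member called of 8 (adjusted p = 0.0125), where 6.77% of all genes were called. In the tests of each knockdown vector against both control vectors, 1 of 8 members was called with each hairpin, against 7.03% of genes for shBEX2-1 and 9.67% for shBEX2-2. Neither comparison within a label called a member. Between shNontarget and shControl 0 of 20450 genes were called (0%), with 2 members, CDH1 and SNAI2, and 1567 genes at an unadjusted limma p under 0.05, and between the hairpins 0.00978% of genes were called, with no member under that unadjusted p.

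The number of genes called by the F test rose without a shNontarget array and fell without any other array. Without shNontarget array 1 the F test called 7 of 8 members, all but ESRP1, where 14233 genes were called, and without shNontarget array 2 it called 5, namely CDH1, VIM, FN1, SNAI1 and SNAI2, where 14773 genes were called. In both fits shNontarget was left with 1 array, which was assumed to vary like those of the other vectors. Without any one of the other 6 arrays the F test called 0 genes, while 2616 to 3234 had an unadjusted p under 0.05.

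**Figure D4:**
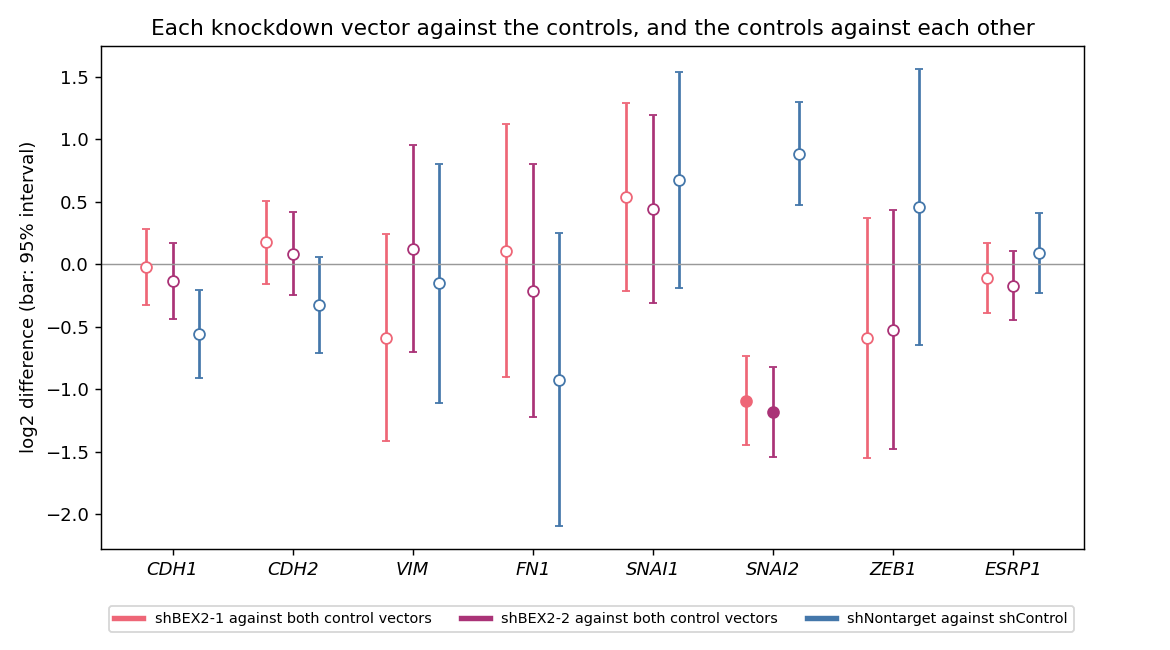
Differences (vertical axis, log2) of each knockdown vector from the control vectors and of shNontarget from shControl for the 8 tested genes (horizontal axis), with 95% intervals from limma as bars and filled points for an adjusted p under 0.05. The filled points are SNAI2 with shBEX2-1 (-1.09) and with shBEX2-2 (-1.18), and SNAI2 of shNontarget against shControl is 0.89.

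By vector means, the order for SNAI2 was shNontarget, shControl, shBEX2-1 and shBEX2-2, and its last step of 0.09 was within the replicate SD of 0.14. CDH1 ran from shControl over shBEX2-1 and shBEX2-2 to shNontarget, with steps of 0.30, 0.11 and 0.14 against a replicate SD of 0.09. VIM ran from shBEX2-2 over shControl and shNontarget to shBEX2-1, and its first 2 steps, 0.05 and 0.15, were within the replicate SD of 0.46. ESRP1 had the same order as SNAI2, and FN1 the same as CDH1. ZEB1 differed from SNAI2 only in the order of the hairpins, 0.07 apart. All steps of FN1 and ZEB1 were within their replicate SDs of 0.58 and 0.55. The members thus followed no single order of vectors, though some shared one. Over the 8 arrays the Pearson correlation between members was highest for SNAI2 with ESRP1 (0.87) and lowest for CDH2 with ZEB1 (-0.78), and between CDH1 and CDH2 it was 0.63. These are descriptions over arrays that share vectors.

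The genes whose pattern over the 8 arrays was most like that of a member were found among all genes tested, again as a description. For CDH1 these were SLC12A2 (Pearson r = 0.98) and ETV6 (0.96), for VIM EMP3 (0.99) and KRT34 (0.99), for FN1 TMEM87A (0.99) and ZNF644 (0.98), and for SNAI1 POLM (0.99) and TRIM25 (0.99). The first of the pair was CHIC1 for CDH2 (0.98), TTC12 for SNAI2 (0.99) and ZNF155 for ZEB1 (0.99), and for each of these the other had no gene symbol. For ESRP1 they were CREB3L1 (0.98) and MOCOS (0.96). With ZEB1, 202 genes reached r over 0.95, against 3 with CDH2 and 50 with SNAI2.

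Other genes of the same biology were taken from 4 lists. The lists were chosen with earlier results of these data known, so their shares called are descriptions and show no enrichment. Of 38 epithelial junction and polarity genes 37 were tested, 6 fell and none rose (16.2% called against 12.9% of all genes; median difference -0.08). The largest falls were of PPL, the desmosome-linked plakin periplakin (mean 0.23 on the control and -0.77 on the knockdown arrays, log2, limma adjusted p = 0.0054), of PATJ, a polarity scaffold named INADL on the array (-0.88 ± 0.16, SE, adjusted p = 0.00823), and of CTNNA1, the alpha-catenin that ties cadherins to actin (-0.64 ± 0.16, adjusted p = 0.0291). PPL read -0.0039 to 0.43 on the control arrays and -1.08 to -0.57 on the knockdown arrays, without overlap. CTNNA1 was past the threshold in 14 of 23 alternatives.

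Of 41 mesenchymal matrix and contractile genes 27 were tested, 2 rose and 6 fell (29.6% called against 12.9% of all genes, median difference -0.12). VCAN, the matrix proteoglycan versican, read 3.65 and 3.83 with shControl, 2.50 and 3.52 with shNontarget, 1.12 and 1.37 with shBEX2-1 and 0.46 and 0.68 with shBEX2-2. It fell by 2.47 ± 0.31 on the log2 scale (SE, limma adjusted p = 0.00208) and passed the threshold in all 23 alternatives. POSTN, the matrix protein periostin, passed background on all 4 knockdown arrays and on no control array, at least 2.92-fold higher in the former. POSTN is 1 of the 2 counted as risen, and it met the filter on dim probes through the knockdown arrays alone, so its place in that count supports nothing. CCN2, a matricellular growth factor named CTGF on the array, differed by -1.79 ± 0.48 (adjusted p = 0.0411), read 0.87 and -0.01 with shNontarget and -1.54 and -1.39 with shControl, and lost its call with normexp background correction (adjusted p = 0.0534) and with the replicate number as a block (adjusted p = 0.0509).

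Of 14 other factors known to promote the transition 7 were tested, 2 rose and 2 fell (57.1% called against 12.9% of all genes, median difference -0.43). This share rests on only 7 genes of a list chosen with earlier results known. SOX4, a SOX family activator, fell from a mean of 0.90 to -0.60 (log2, SE of the difference 0.25, limma adjusted p = 0.00579) and FOXC1, a forkhead factor, fell by 1.02 ± 0.16 on the log2 scale (adjusted p = 0.00495). Against shNontarget alone the adjusted p of SOX4 was 0.0757 and that of FOXC1 0.0819.

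Of 14 epithelial transcription factors 12 were tested, 1 rose and 2 fell (25% called against 12.9% of all genes, median difference -0.12). GRHL1, a grainyhead factor, differed by 0.52 ± 0.14 (log2, SE, limma adjusted p = 0.0446), OVOL1, a zinc finger factor, by -0.42 ± 0.12 (adjusted p = 0.0474) and KLF5 by -0.41 ± 0.12 (adjusted p = 0.0494). None of the 3 passed with the replicate number as a block (adjusted p 0.0595 to 0.066), and with the mean of its probes GRHL1 differed by -0.26 (adjusted p = 0.826). The called genes of these lists went in both directions in 3 of the 4, and the epithelial junction list had falls alone.

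**Figure D5:**
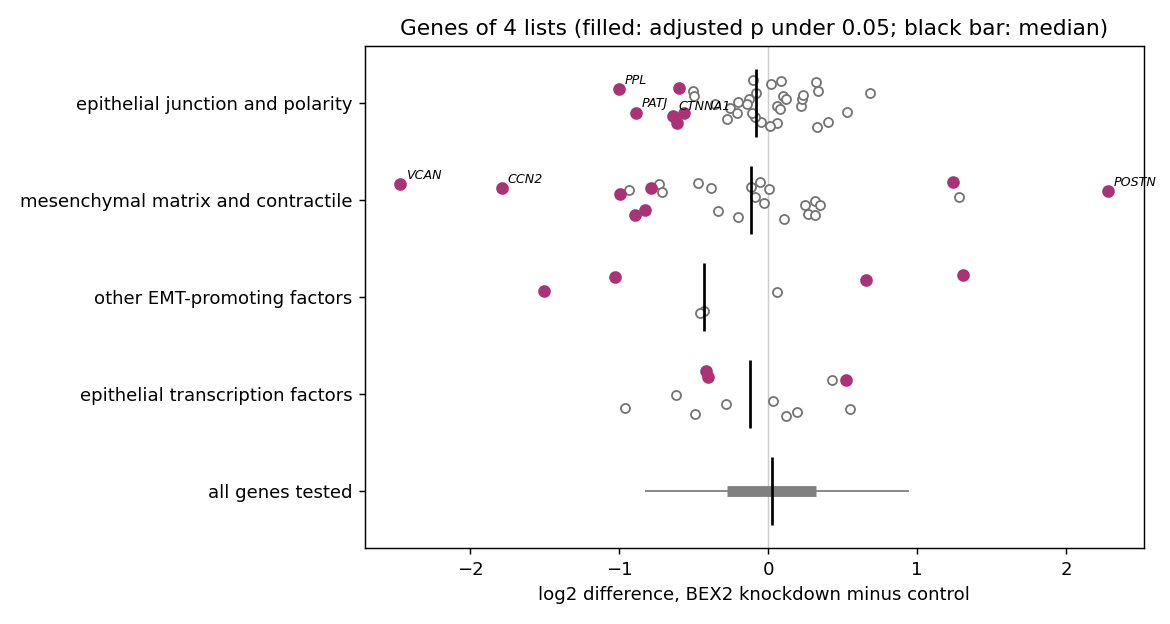
Difference between BEX2 knockdown and control (horizontal axis, log2) for each tested gene of 4 lists, with filled points for a limma adjusted p under 0.05, black bars for list medians and, for all 20450 genes, a thin line from the 5th to the 95th percentile (-0.83 to 0.95) and a thick line from the 25th to the 75th. VCAN at -2.47 and POSTN are the farthest points, and POSTN is plotted at its fitted value although it was below background on the control arrays.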

How the data were processed

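HuCCT1 RNA was labelled with Cy3 and hybridised to 8 1-colour Agilent human arrays, and the authors deposited scanner intensities from Feature Extraction 10.7.3.1, background-subtracted by that software. A deposited table of the whole series held the same intensity values, within 0.497%. The arrays' number limits the precision. Intensities were set relative to each array's 75th percentile on the log2 scale, spots of a probe were averaged, and a probe was kept if 4 or more of the 8 arrays had it well above background (25053 probes). The brightest probe stood for a gene. Differences were tested with limma 3.58.1 (R 4.3.3), a call being a Benjamini-Hochberg adjusted p under 0.05 over 20450 genes, as knockdown against control and over 4 vectors. The limma fit was tested on simulated data with the same spread on all arrays and no differences between vectors of a condition. The wider spread of the shNontarget arrays was not simulated. Members and lists were chosen with earlier results of these data known. From each list the 3 called genes of largest change are named, except 1 that is not reported here, with BEX2, KRT7, KRT19, EPCAM and, for each member, the 2 most similar genes. Genes named besides these (markers of other cell types) were chosen after their values were seen. Names of the deposited files give each replicate number a day of its own, and the same-numbered deviations of 6 vector pairs correlated at -0.06 to 0.26, so the number was tried as a block.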

Additional observations from a re-analysis of the deposited data

Results flagged for a closer look

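In groups of 4 arrays, an array was singled out where its gap to the nearest other array exceeded Dixon's critical share of the group's range at 95% confidence, which chance gives in about 1 in 20 groups. Of 20 groups examined (10 genes, control and knockdown), 3 were singled out. FN1 was far below the other control arrays on shNontarget array 1, at -2.14 against -0.60 to -0.42. FN1 was also far above the other knockdown arrays on shBEX2-1 array 1, at -0.52 against -1.14 to -1.08. TWIST1 stood at -3.28 on shControl array 1 against -7.47 to -7.39 on the other control arrays. That array held 114 spots at least 4 (log2) above every other array where the others were not well above background, 87 of them within 2 rows and columns of another such spot, and none of the 21 spots around the TWIST1 spot was one. The other shControl array held 118 such spots, the shNontarget arrays 97 and 49, the shBEX2-1 arrays 10 and 2 and the shBEX2-2 arrays 5 and 4.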

How the results depend on the processing

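SNAI2 stayed lower under all 23 alternatives (-1.58 to -0.69) and called in 19. With 1 array left out the calls ranged from 0 to 2 of 8 members for knockdown against control, from 0 to 7 over the 4 vectors, from 0 to 4 for each hairpin, from 0 to 6 for shNontarget against shControl and from 0 to 1 between the hairpins. In the lists they ranged from 2 to 12 (epithelial junction), from 4 to 11 (mesenchymal), from 3 to 5 (other factors) and from 0 to 5 (epithelial transcription factors). The larger counts came without a shNontarget array, where of all genes 51.5% to 54.5% were called for a hairpin, 45.2% to 46.3% for shNontarget against shControl and 14.4% to 14.7% between the hairpins.

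Member calls became 3 with shControl alone as control (CDH1, SNAI1, SNAI2), a count near the 33.5% of all genes called there. Member calls were 0 for each hairpin against shControl in the 4-vector fit. They became 2 with the other probe of CDH2 and ZEB1, an alternative chosen after seeing the data, and 0 by the rank product and by the methods' t-test after Benjamini-Hochberg (SNAI2 adjusted 0.0522, 2174 genes called, 5422 before adjustment). Epithelial junction calls became 15 with shControl alone, 1 with shNontarget alone, 3 with the mean of a gene's probes and 3 by the t-test, and 0 by the rank product. Mesenchymal calls became 15 with shControl alone and 3 both with shNontarget alone and by the rank product. Other factors became 1 with shNontarget alone and 2 by the rank product. Epithelial transcription factor calls became 6 with shControl alone and 0 with shNontarget alone, without the filter on dim probes, without the trend, with the replicate block and by the rank product. All genes called were 2646 in all, 6842 with shControl alone, 341 with shNontarget alone and 843 by the rank product, and 1247 to 4722 with 1 array left out.

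Directions turned for CDH1 (0.20 with shNontarget alone, 0.0025 and 0.026 without shControl array 1 or 2; -0.19 to 0.026 with 1 array left out), CDH2 (a log2 difference of -0.033 with shControl alone), FN1 (0.41 with shNontarget alone, 0.11 and 0.09 without shControl array 1 or 2, 0.05 without shNontarget array 2, 0.01 without shBEX2-2 array 2; -0.46 to 0.11 with 1 array left out) and GRHL1 (-0.26 with the mean of its probes). With the replicate number as a block 1 member was called, SNAI2 at -1.13 (adjusted p = 0.0221), and 2457 genes in all. The block changed the call of no other member. Signal near background limits SNAI1 and the second ZEB1 probe. Causes were not tested.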
